A study of Mus musculus with 12 samples.

Results

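Nkg7, Cst7 and Serpinb1a are 3 genes of granule biology, measured here among 9984 genes in stem and progenitor cells sorted from mouse bone marrow in which Erg, a gene for a transcription factor of the ETS family, was lost in part or in full. Each is covered by 1 probe set of the array, and all 3 were found. They were picked by symbol with the values of these arrays known, their low values in Erg -/- multipotent progenitors among them, so that comparison is given below as a description, without a test.

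The arrays fall into 4 groups of 3. Multipotent progenitors (MPPs) came from Erg -/- mice, which carried Mx1-Cre and the floxed exon 11, and from Erg flox/flox mice (written Erg fl/fl below), which lacked Mx1-Cre. The mice of both MPP groups were injected with pIpC 5 times, at intervals of 2 days, and sorting took place 2 weeks after the first injection. pIpC mimics viral RNA, and the interferon it raises switches on Mx1-Cre in many cell types besides blood cells. Hematopoietic stem cells (HSCs) came from Erg +/- mice, obtained with a general deleter Cre, and from Erg +/+ mice, with no pIpC given in the labels. All mice were male and on a C57Bl/6 background of at least 6 generations. Erg +/- samples are titled KO but keep a wild-type allele by their genotype field, which the grouping follows. HSCs were gated as lacking lineage markers and CD48 while carrying Sca-1, c-Kit and CD150. For the MPPs the sorting field gives cells negative for CD150, whereas the source field still names the HSC gate, which is positive for CD150. Which gate was used is open. Erg itself is not analysed here and gives no check of the genotypes.

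Granules are compartments in which blood cells store proteases, among other proteins, and inhibitors of such proteases can protect the cell itself. NKG7 is a small membrane protein of the cytotoxic granules of natural killer (NK) cells and T cells, and takes part in their release. Cystatin F, encoded by Cst7, is a cystatin that is sorted to lysosomes and granules, where it inhibits cysteine cathepsins, among them cathepsin C, which activates the serine proteases of granules. Serpinb1a encodes a serpin of the cytosol that inhibits elastase, cathepsin G and proteinase 3 of neutrophils and is known for protecting neutrophils from their own proteases. The 3 proteins belong to different families, and what they share is the granule in which they or their targets act.

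The RefSeq promoter table, of build GRCm38.p6, holds 2 of the 3 genes, Nkg7 and Cst7. The 250 bases before the start of each are shown, and Serpinb1a is left out only because it has no entry there. Capitals mark AGGAAG on either strand, the letters of an extended ETS site. The Nkg7 sequence is the plus strand of chr7:43436888-43437137 and the Cst7 sequence the plus strand of chr2:150570165-150570414.
Nkg7: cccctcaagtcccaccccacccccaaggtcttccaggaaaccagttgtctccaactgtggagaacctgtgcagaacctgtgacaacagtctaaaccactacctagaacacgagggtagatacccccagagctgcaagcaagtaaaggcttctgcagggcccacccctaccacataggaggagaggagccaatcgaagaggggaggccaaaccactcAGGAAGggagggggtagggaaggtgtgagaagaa
Cst7: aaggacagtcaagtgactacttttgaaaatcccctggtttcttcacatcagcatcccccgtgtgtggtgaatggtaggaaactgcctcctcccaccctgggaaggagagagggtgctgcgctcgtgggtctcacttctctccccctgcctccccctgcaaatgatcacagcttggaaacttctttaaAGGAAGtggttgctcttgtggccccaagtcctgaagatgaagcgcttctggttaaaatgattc

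AGGAAG occurred once in each promoter, 34 bases before the start in Nkg7 and 63 in Cst7, and it occurs in 29.48% of the 32851 promoters of the table. The shorter core GGAA, which AGGAAG contains, occurred 4 times in each and is present in 93.45% of promoters. TGTGGT, the letters of a RUNX site, occurred once in each, 83 bases before the start in Nkg7 and 188 in Cst7, and is present in 14.05% of promoters. CANNTG, the E-box, occurred 2 times in each and in 66.22% of promoters at least once. AGATAA, the letters of a GATA site, is not in either window and is in 9.988% of promoters. All motifs were searched on both strands, and a match describes letters only. Whether these letters bear on the levels of the genes was not tested.

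In MPPs without Erg all 3 genes were lower. Nkg7 had log2 values of 5.90, 6.23 and 5.57 in the Erg -/- arrays, against 9.36, 8.82 and 8.66 in the Erg fl/fl arrays. The group means were 5.90 ± 0.33 and 8.95 ± 0.37 (SD, n = 3 each), a difference of -3.05 on the log2 scale (SE 0.46), or 8.27-fold lower. Every Erg -/- array lay below every Erg fl/fl array, and the gap between the groups was wider than the spread within either. Serpinb1a had values of 6.33, 6.82 and 5.92 in Erg -/- MPPs, against 9.17, 8.93 and 8.56 in Erg fl/fl MPPs. Its means were 6.36 ± 0.45 and 8.89 ± 0.31 (SD, n = 3 each), a difference of -2.53 (SE 0.38), or 5.78-fold lower. As for Nkg7, the groups did not overlap. Cst7 had values of 5.79, 5.46 and 5.19 in Erg -/- MPPs, against 7.78, 6.91 and 6.68 in Erg fl/fl MPPs. Its means were 5.48 ± 0.30 and 7.13 ± 0.58 (SD, n = 3 each), a difference of -1.65 (SE 0.43), or 3.13-fold lower, again with groups apart. Cst7 showed the smallest difference of the 3, and its Erg fl/fl arrays were the most spread.

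**Figure D1:**
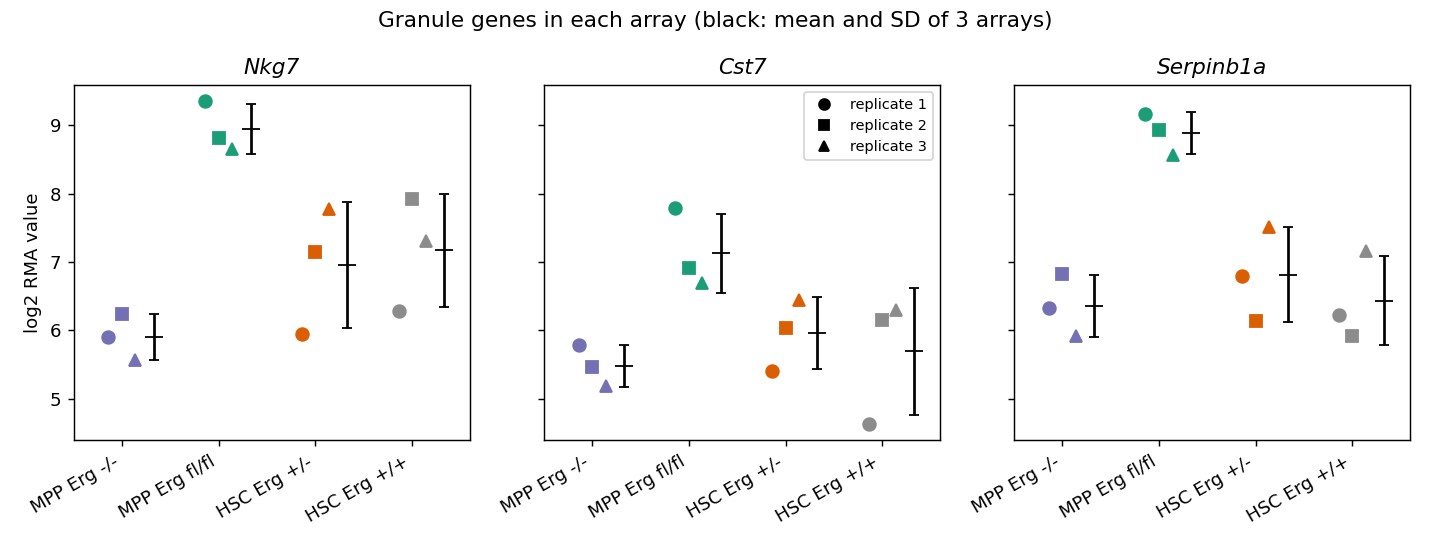
Log2 RMA value (vertical axis) of Nkg7, Cst7 and Serpinb1a in each of the 12 arrays, by group (horizontal axis). Marker shapes give the replicate and black bars the mean and SD of 3 arrays. The 3 Erg fl/fl MPP arrays lie above all other arrays in each panel, and the lowest of them is at 8.66 for Nkg7, 6.68 for Cst7 and 8.56 for Serpinb1a.

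Counted from the most negative difference among all 9984 genes, Nkg7 was in place 3, Serpinb1a in place 4 and Cst7 in place 13. Groups stood apart with Erg -/- lower for 3 of 3 members and for 6.1% of all genes, and with Erg -/- higher for 0 of 3 members and 4.36% of all genes, counts that the choice of members fixes. Over all genes, 8 passed an adjusted p of 0.05 by limma, all of them lower in Erg -/- MPPs, which is 0.0801% of the genes tested. The groups also differ in Mx1-Cre, so genotype and Cre cannot be told apart. In sorted bulk cells, fewer cells that contain a transcript and less of it per cell cannot be told apart either.

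The differences of the members kept their sign when any of the 6 MPP arrays was left out. Nkg7 ranged from -3.21 to -2.84, Serpinb1a from -2.76 to -2.31 and Cst7 from -1.87 to -1.32. The smallest Cst7 difference was that without Erg fl/fl replicate 1, in which all 3 genes had their highest value of the study.

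In HSCs the 2 genotypes were not set apart by these genes. Nkg7 had values of 5.95, 7.15 and 7.77 in Erg +/- HSCs, against 6.28, 7.93 and 7.30 in Erg +/+ HSCs. Cst7 had 5.40, 6.04 and 6.44 in Erg +/- HSCs, against 4.62, 6.15 and 6.30 in Erg +/+ HSCs. Serpinb1a had 6.80, 6.13 and 7.52 in Erg +/- HSCs, against 6.23, 5.91 and 7.17 in Erg +/+ HSCs. The genotypes overlapped for all 3 genes, while groups stood apart with Erg +/- lower for 4.38% of all genes and higher for 6.06%. Replicate 1 had the lowest Nkg7 and Cst7 values of its group in both genotypes.

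The HSC arrays are not those of the MPP comparison, and the HSC differences were tested. Whether HSC values also entered the choice of the genes is not stated, so these p-values are not independent of it with certainty. By limma over all genes, 0 of the 3 passed, against 0.02% of the 9984 genes, and 0 had an unadjusted p under 0.05, against 6.32%. Nkg7 differed by -0.21 on the log2 scale (95% confidence interval -1.21 to 0.78, limma adjusted p = 0.98). Cst7 differed by 0.27 (-0.67 to 1.20, limma adjusted p = 0.978). Serpinb1a differed by 0.38 (-0.45 to 1.21, limma adjusted p = 0.955). The intervals leave room for changes in either direction, of up to 1.21 log2 units, so they do not show that the genotypes are alike. The sign in HSCs rested on single arrays for Nkg7, which stood at 0.29 without Erg +/- replicate 1 and at 0.16 without Erg +/+ replicate 2, and for Cst7, which stood at -0.27 without Erg +/+ replicate 1. Whether the MPP and HSC differences differ was not tested, because the members were chosen on the MPP values. Number of lost alleles, cell type, pIpC and Mx1-Cre also set these comparisons apart.

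**Figure D2:**
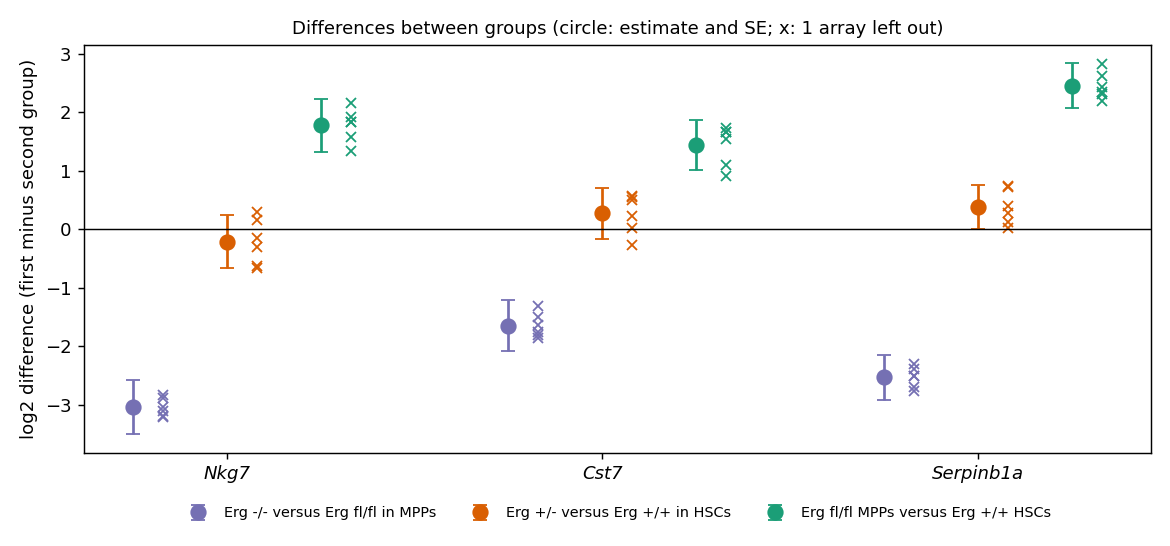
Log2 difference (vertical axis, first minus second group) of each gene in the 3 comparisons. Circles with bars are the estimate and its SE, and each x is the estimate without 1 array. The MPP genotype differences lie between -3.05 and -1.65, those in HSCs between -0.21 and 0.38.

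Between the control groups the 3 genes were higher in MPPs than in HSCs. Nkg7 averaged 8.95 ± 0.37 in Erg fl/fl MPPs and 7.17 ± 0.83 in Erg +/+ HSCs (SD, n = 3 each), a difference of 1.78 (SE 0.46). Serpinb1a averaged 8.89 ± 0.31 in Erg fl/fl MPPs and 6.43 ± 0.65 in Erg +/+ HSCs, a difference of 2.45 (SE 0.38). Cst7 averaged 7.13 ± 0.58 in Erg fl/fl MPPs and 5.69 ± 0.93 in Erg +/+ HSCs, a difference of 1.43 (SE 0.43). For all 3 the groups stood apart, as they did with MPPs higher for 18.5% of all genes and lower for 8.54%. These values share the Erg fl/fl arrays with the comparison on which the genes were chosen and are therefore not tested. The median of all genes was itself 0.12 log2 units higher in Erg fl/fl MPPs. The Nkg7 and Cst7 differences depend on the low Erg +/+ replicate 1: without that array they were 1.33 and 0.90. The groups also differ in pIpC treatment and in the floxed alleles. Mean levels of 4 marker lists of other cell types were also higher in each Erg fl/fl MPP array than in any Erg +/+ HSC array. Their medians were 6.57 in Erg fl/fl MPPs against 4.99 in Erg +/+ HSCs for the B lineage, and 6.29 against 4.79 for mast cells and basophils. They were 6.18 in Erg fl/fl MPPs against 5.53 in Erg +/+ HSCs for granulocyte-macrophage progenitors and monocytes, and 5.18 against 4.50 for NK and T cells. At an unadjusted p under 0.05, 5 of 6, 3 of 4, 4 of 12 and 6 of 10 genes of these lists were higher, against 14.4% of all genes. The lists were written with earlier results of these data known, so these counts are a description and no test. Mcpt8, at 4.13, led the mast cell and basophil list, whose median difference was 0.70. The part of the cell types of these 4 lists in the member values was not tested.

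The order of the 4 groups was therefore led by Erg fl/fl MPPs for each gene, with a gap to the next group. Nkg7 was next in Erg +/+ HSCs, then in Erg +/- HSCs and lowest in Erg -/- MPPs. Only the neighbours Erg fl/fl MPPs and Erg +/+ HSCs did not overlap, while each of the lower neighbours did. The highest Nkg7 value of Erg -/- MPPs, 6.23, lay just below the lowest of Erg +/+ HSCs, 6.28, with group means of 5.90 and 7.17. Cst7 and Serpinb1a were next in Erg +/- HSCs, then in Erg +/+ HSCs and lowest in Erg -/- MPPs. For both genes the ranges of these 3 lower groups overlapped, so their order is not resolved.

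The way single arrays departed from their group's mean is separate from the differences between groups. On this measure Nkg7 and Cst7 went together, and neither pair with Serpinb1a passed the test. The genes were picked with the values of these same 12 arrays known, so the p-values below are not independent of the choice with certainty. The deviations of Nkg7 and Cst7 over the 12 arrays correlated with Pearson r = 0.855 (exact permutation within groups, two-sided, 1296 arrangements, p = 0.00772, adjusted p = 0.0231 over 3 pairs) and Spearman rho = 0.839 (exact permutation p = 0.01, adjusted p = 0.0301). The sign of the deviation was the same in 10 of 12 arrays. Of all other genes 0.17% had deviations that followed those of Nkg7 as closely or more so. Without Erg +/- HSC replicate 1 and Erg +/+ HSC replicate 1, the arrays with the most extreme Nkg7 deviations, r was 0.736. Within the 6 HSC arrays r was 0.886 and within the 6 MPP arrays 0.793.

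For Nkg7 and Serpinb1a the deviations gave r = 0.289 (exact permutation p = 0.512, adjusted p = 0.512) and rho = 0.259 (exact permutation p = 0.535, adjusted p = 0.535), with r = 0.329 without the same arrays. For Cst7 and Serpinb1a they gave r = 0.418 (exact permutation p = 0.319, adjusted p = 0.478) and rho = 0.413 (exact permutation p = 0.292, adjusted p = 0.439), with r = 0.395 when replicate 1 of Erg +/+ HSCs and replicate 1 of Erg fl/fl MPPs were left out. Nkg7 and Serpinb1a were close within the 6 MPP arrays, at r = 0.935, and not within the 6 HSC arrays, at r = 0.146. This contrast was noticed after the values were seen and was not tested. In HSCs, Serpinb1a was lowest in replicate 2 of both genotypes, where Nkg7 was above its group mean.

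**Figure D3:**
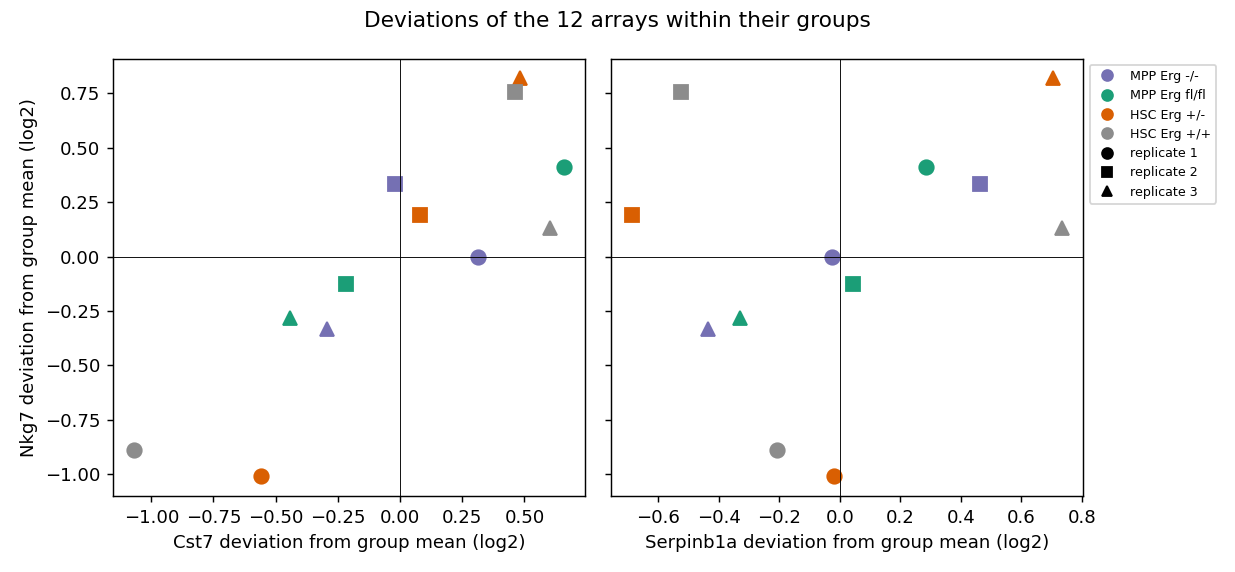
Deviation of Nkg7 from its group mean (vertical axis, log2) against that of Cst7 (left) and of Serpinb1a (right), with 1 point per array, coloured by group and shaped by replicate. The Cst7 panel shows the 12 arrays along a rising line (r = 0.855), whereas the Serpinb1a panel is scattered (r = 0.289).

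Marker lists, and the granule and protease lists with the strongest correlations, were set beside these deviations as a description. The mean deviation of the 12 measured granulocyte-macrophage progenitor and monocyte markers correlated at 0.416 with Nkg7, 0.645 with Cst7 and 0.738 with Serpinb1a. That of the 10 measured NK and T cell markers correlated at -0.149, -0.326 and -0.063. That of the 6 measured B lineage markers correlated at -0.63 with Nkg7, -0.764 with Cst7 and -0.064 with Serpinb1a. MPP and lymphoid-primed markers correlated at -0.741 with Nkg7, -0.430 with Cst7 and -0.005 with Serpinb1a. In the same order, HSC markers gave 0.296, 0.431 and 0.043. Mast cell and basophil markers gave 0.186, 0.369 and 0.090. Genes of granule membrane and secretion gave 0.730 with Nkg7, 0.470 with Cst7 and 0.372 with Serpinb1a. Specific and gelatinase granule proteins gave 0.539, 0.575 and 0.514 in that order. Cytotoxic granule cargo went the other way, at -0.338, -0.545 and -0.431. Cysteine cathepsins and legumain gave -0.053, 0.177 and 0.765. The part of the marked cell types in the deviations was not tested, and all points share an array and its normalisation.

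Over all 12 arrays the members correlated at r = 0.903 (Nkg7 and Cst7), 0.808 (Nkg7 and Serpinb1a) and 0.814 (Cst7 and Serpinb1a), values that include the differences between groups. By the same measure, the genes most like Nkg7 were Il1r1 (r = 0.935), which encodes the interleukin-1 receptor, Dpy19l1 (0.924), Zcchc3 (0.86), the kinase gene Tnik (0.857) and Heatr1 (0.839), which acts in ribosome biogenesis. Il1r1 had values of 6.14, 5.94 and 5.19 in Erg -/- MPPs, against 8.29, 7.76 and 7.34 in Erg fl/fl MPPs, a difference of -2.04. In HSCs it had 5.36, 6.38 and 7.06 with Erg +/-, against 6.45, 6.67 and 7.12 with Erg +/+, a difference of -0.48. Il1r1 thus showed the same high group and the same low Erg +/- replicate 1 as Nkg7. The other 4 genes differed between the MPP groups by -0.80 to -0.44 only.

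The genes most like Cst7 were Heatr1 (r = 0.917), Triap1 (0.888), the granule and lysosome membrane gene Cd63 (0.875), Fam3c (0.864) and Il1r1 (0.858). Heatr1 and Il1r1 are thus near both Nkg7 and Cst7. The genes most like Serpinb1a were Ruvbl1 (r = 0.87), an ATPase gene of chromatin complexes, Taf12 (0.865), a subunit gene of the general transcription factor TFIID, the co-chaperone gene Stip1 (0.858), Igll1 (0.857), which encodes a part of the surrogate light chain of early B cells, and Mcpt8 (0.856), a protease gene of basophil granules. None of these 5 is among those nearest Nkg7 or Cst7. Igll1 and Mcpt8 differed by -1.88 and -3.54 between Erg -/- and Erg fl/fl MPPs. All were picked by their pattern, so no test is attached to it.

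Few other genes of granules and of protease control passed the test in MPPs. Of 46 measured genes on 8 lists of granule contents, granule membrane, cystatins, cathepsins and clade B serpins, 1 was lower in Erg -/- MPPs by limma and 0 were higher, against 0.0801% and 0% of all genes. At an unadjusted p under 0.05, 3 were lower and 0 higher, against 3.58% and 1.21% of all genes (4.79% in either direction). Their median difference was 0.00 log2 units, and that of all genes was also 0.00. Many of the 46 lay below the array medians of Erg fl/fl MPPs, 5.52 to 5.54. RMA shrinks differences of such dim genes, so a missing call does not show that they stayed level. The called gene was Mcpt8, which had 5.26, 4.92 and 4.70 in Erg -/- MPPs, against 9.16, 7.21 and 9.13 in Erg fl/fl MPPs (limma adjusted p = 0.0029). With replicate 1 of Erg fl/fl MPPs and replicate 1 of Erg +/+ HSCs both left out, it no longer passed (limma adjusted p = 0.0512).

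Among cytotoxic granule cargo, where Nkg7 acts, 4 of 15 listed genes are measured, all granzymes other than the main A and B forms. They differed by -0.42 to 0.21 and 0 were called by limma, also at an unadjusted p under 0.05. These granzymes were dim, with a mean level of 3.90 to 4.33 in the Erg fl/fl MPP arrays, which leaves little room for a fall. Gzmc and Gzme stood at -0.42 and -0.23 (limma adjusted p = 0.998 for each). Among the genes of granule membrane and secretion, Cd63 averaged 10.67 ± 0.10 in Erg -/- MPPs and 11.14 ± 0.22 in Erg fl/fl MPPs (SD, n = 3 each), with groups apart. Vamp8, a fusion protein of secretory granules, averaged 10.63 in Erg -/- MPPs and 10.95 in Erg fl/fl MPPs, also apart. Neither passed (limma adjusted p = 0.998 for each), and groups stood apart for 2 of the 4 measured genes of this list, lower in Erg -/-, against 6.1% of all genes.

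Of the cystatin family, 7 of 20 listed genes are measured besides Cst7, and 0 were called by limma, with 1 lower at an unadjusted p under 0.05. That gene is Cst3, the widely secreted cystatin C, which averaged 9.79 in Erg -/- MPPs and 10.20 in Erg fl/fl MPPs, a difference of -0.41 (limma adjusted p = 0.998) against -1.65 for Cst7. The other 6 lay between -0.03 and 0.31, and were dim, with means of 2.69 to 4.44 in Erg fl/fl MPPs. Of the cysteine cathepsins and legumain, the targets of cystatins, only Ctsk and Ctso are measured, at -0.11 and -0.22 (limma adjusted p = 0.998 for each). Cathepsin C itself is not analysed here.

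Of the clade B serpins, 12 of 26 listed genes are measured besides Serpinb1a, and 0 were called by limma, also at an unadjusted p under 0.05. Their differences ran from -0.24 to 0.64 with a median of 0.08. Their mean level was only 3.08 to 3.35 in the Erg fl/fl MPP arrays, against 8.89 for Serpinb1a, so a fall of most of them could hardly be seen. Serpinb1c, a paralogue and direct neighbour of Serpinb1a in the RefSeq order of GRCm38.p6, differed by 0.03 between Erg -/- and Erg fl/fl MPPs (limma adjusted p = 0.998). Serpinb8 had the largest positive difference, 0.64, with values of 6.41, 5.05 and 5.75 in Erg -/- MPPs, against 4.63, 5.14 and 5.51 in Erg fl/fl MPPs, which overlap.

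The azurophil granule list, which would hold targets of Serpinb1a, has 4 of 14 genes measured, and neutrophil elastase, cathepsin G and proteinase 3 are not analysed here. The 4 differed by -0.33 to 0.12, led by Prss57, a serine protease of these granules, at -0.33 and Naglu at 0.12 (limma adjusted p = 0.998 for each). Of the specific and gelatinase granule proteins of maturing neutrophils, 7 of 20 are measured, and they differed by -0.36 to 0.08, with Hp at -0.36 and Ltb4r1 at -0.18 (limma adjusted p = 0.998 for each). From both lists 0 were called by limma, and 0 at an unadjusted p under 0.05.

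**Figure D4:**
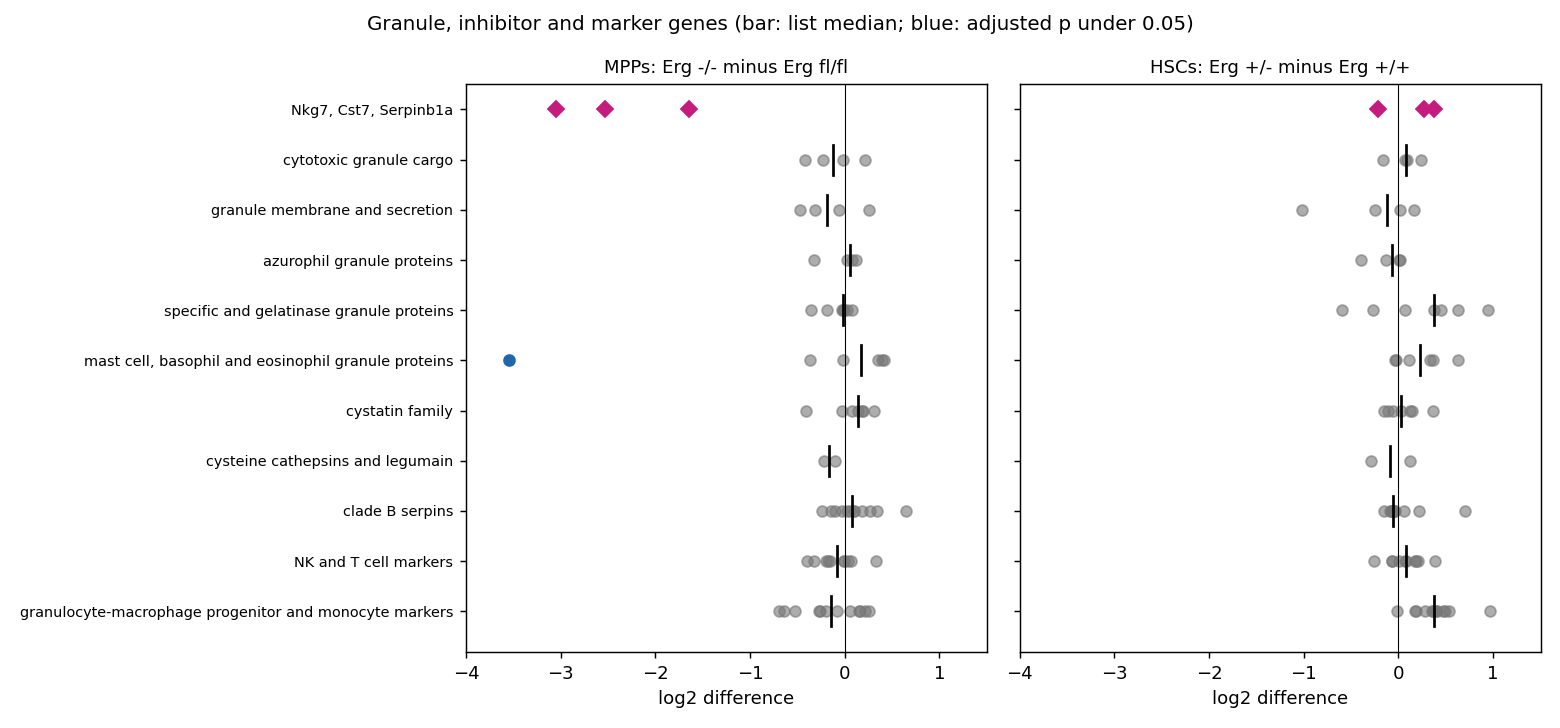
Log2 differences (horizontal axis) of the members (diamonds) and of the measured genes of 10 lists (circles), between Erg -/- and Erg fl/fl MPPs (left) and between Erg +/- and Erg +/+ HSCs (right). Bars are list medians and blue marks an adjusted p under 0.05. In MPPs the members lie at -3.05, -2.53 and -1.65, and Mcpt8, at -3.54, is the single blue circle.

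In HSCs, 0 of the same 46 genes passed by limma, against 0.02% of all genes. An unadjusted p under 0.05 was reached by 3 with higher and 1 with lower values, against 2.73% and 3.59%. The lower one was Slc29a3, a lysosomal nucleoside transporter gene, at -1.01 log2 units in Erg +/- HSCs (limma adjusted p = 0.0625). The higher ones were the leukotriene receptor gene Ltb4r1 at 0.38, the integrin gene Itgam at 0.63 and the mast cell protease gene Mcpt1 at 0.37 (limma adjusted p = 0.789 for each). Between the control groups 1 of the 46 was higher, Mcpt8 at 4.13, and 1 lower, Slc29a3 at -1.15 (limma adjusted p = 0.000242 and 0.00366), against 0.651% and 0.631% of all genes (1.28% in either direction). At an unadjusted p under 0.05, 7 were higher and 3 lower, against 14.4% and 7.91% (22.3% in either direction).

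Markers of cell types that could carry the members were followed in the same arrays, on lists written with earlier results of these data known. Of 21 NK and T cell markers 10 are measured, and their mean log2 level lay between 4.85 and 5.10 in Erg -/- MPPs, against 4.80 to 5.24 in Erg fl/fl MPPs. The groups overlap, and 0 of the 10 passed by limma, with 1, Cd7 at -0.40, at an unadjusted p under 0.05. Of the 10, 3 had positive and 7 negative differences. Klrk1, Cd3d and Klrc1 averaged 3.59, 3.73 and 3.93 in Erg fl/fl MPPs, below the medians of those arrays, 5.52 to 5.54. A fall of such dim markers could hardly be seen. Ccl5, the brightest of the 10, averaged 7.58 in both MPP groups. Klrd1, a receptor gene of NK cells, averaged 4.25 in Erg -/- MPPs and 4.43 in Erg fl/fl MPPs, and Il2rb, a receptor gene of NK and T cells, averaged 5.56 in Erg -/- MPPs and 5.49 in Erg fl/fl MPPs (limma adjusted p = 0.998 for each). Between the control groups 6 of the 10 were higher at an unadjusted p under 0.05, against 14.4% of all genes, and 1 passed by limma, against 0.651%. This was Cd7, higher in Erg fl/fl MPPs, by 0.87 (limma adjusted p = 0.0248), which was lost without Erg fl/fl replicate 2 or 3 or Erg +/+ replicate 1 (adjusted p up to 0.0867).

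Of 24 granulocyte-macrophage progenitor and monocyte markers 12 are measured, with a mean level of 6.01 to 6.12 in Erg -/- MPPs, against 6.11 to 6.41 in Erg fl/fl MPPs. Irf8, a transcription factor gene of the monocyte branch, had 6.07, 6.13 and 6.24 in Erg -/- MPPs, against 6.81, 6.48 and 6.70 in Erg fl/fl MPPs, a difference of -0.52 with groups apart. Cebpa, which drives granulocyte-macrophage fate, stood at -0.65 and Igsf6 at -0.70, both with overlapping groups. Of the 12, 5 had positive differences, among them Cebpe at 0.26 and Gfi1 at 0.21, the second with groups apart, and the median was -0.14. By limma 0 of the 12 passed (adjusted p = 0.998 for these 3), and 1, Irf8, had an unadjusted p under 0.05. In HSCs 11 of the 12 had positive differences, with a median of 0.38 against 0.02 for all genes. Clec12a led with 0.97, 0 were called by limma, and 1 had an unadjusted p under 0.05. Between the control groups Irf8 was higher in Erg fl/fl MPPs by 1.05 (limma adjusted p = 0.0364). That call was lost in 5 of 6 cases of leaving out 1 array, all but that of Erg +/+ replicate 3 (adjusted p up to 0.113).

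Some B lineage and basophil markers, on lists written with earlier results of these data known, were lower beside the members in MPPs. The mean level of 6 measured of 14 B lineage markers had a median of 5.27 in Erg -/- MPPs, against 6.57 in Erg fl/fl MPPs. Its highest value was 5.40 in Erg -/- arrays, against a lowest value of 6.50 in Erg fl/fl arrays. Of these, 2 were lower by limma, Igll1 and Vpreb1 (adjusted p = 0.000442 and 0.00326), against 0.0801% of all genes. That of 4 measured of 9 mast cell and basophil markers lay between 4.87 and 5.27 in Erg -/- MPPs, against 5.69 to 6.59 in Erg fl/fl MPPs, and of these Mcpt8 was lower. The other 3 overlapped and did not pass, with Ms4a2 at -0.64, Hdc at -0.37 and Il6ra at 0.09 (limma adjusted p = 0.998 for each). On the related list of granule proteins, Mcpt1 at 0.35 and Epx at 0.39 had groups apart with Erg -/- MPPs higher, and did not pass (limma adjusted p = 0.998 for each). The part of these cells in the member values was not tested. Mcpt8 had 7.21 in Erg fl/fl replicate 2 against 9.16 and 9.13 in the other replicates, and replicate 2 was in the middle for Nkg7, Cst7 and Serpinb1a. Over all 12 arrays Mcpt8 was among the 5 genes most like Serpinb1a (r = 0.856).

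Markers of the sorted populations were compared between the control groups. The lists were written with earlier results of these data known, so their calls are no independent check of the sorts. All 5 measured of 17 HSC markers (Eng, Mmrn1, Tgm2, Nupr1 and Ifitm1) were lower in Erg fl/fl MPPs than in Erg +/+ HSCs by limma, against 0.631% of all genes. Their differences were -4.30 to -1.08, with limma adjusted p from 2.13e-07 to 0.00558. Flt3, a receptor gene of lymphoid-primed progenitors, was 2.57 higher (limma adjusted p = 0.000242). It was the only 1 of 4 measured lymphoid-primed markers to pass, with Il12a at 0.52, Tmem108 at 0.45 and Notch1 at -0.05 (limma adjusted p = 0.419, 0.419 and 0.878). The surface proteins used for sorting are not analysed here. Between Erg -/- and Erg fl/fl MPPs, 1 of the 5 HSC markers, Ifitm1, was lower by limma (adjusted p = 0.000442), against 0.0801% of all genes. At an unadjusted p under 0.05, 3 of the 5 were lower, against 3.58% of all genes. Their groups stood apart, as they did with Erg -/- lower for 6.1% of all genes. Besides Ifitm1 these were Mmrn1 at -0.79 and Eng at -0.57 (limma adjusted p = 0.497 and 0.681). Mmrn1 was dim, at 3.81 in Erg -/- and 4.60 in Erg fl/fl MPPs. Of the lymphoid-primed markers 0 of the 4 measured passed, with Il12a at -1.12 and Flt3 at 0.52 (limma adjusted p = 0.946 and 0.998) and 1, Il12a, at an unadjusted p under 0.05. Array medians over all probe sets lay between 5.41 and 5.54, and the lowest array weights belonged to Erg fl/fl MPP replicate 1 (0.667) and Erg +/+ HSC replicate 1 (0.789). The spread of values was less even. Interquartile ranges were 2.83 to 2.99 in the HSC arrays and 2.50 to 2.64 in Erg -/- MPPs. In Erg fl/fl MPPs they were 2.84 in replicate 1, 2.53 in replicate 2 and 2.58 in replicate 3. The part of this in the differences was not tested.

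Genes beside the members in the genome were looked up as well. Of the 4 protein-coding genes on each side in the RefSeq order of GRCm38.p6, 1 of 8 is measured for Nkg7, 6 of 8 for Cst7 and 3 of 8 for Serpinb1a. The neighbour of Nkg7, Vsig10l, differed by 0.17 between Erg -/- and Erg fl/fl MPPs. Those of Cst7 differed by -0.39 to 0.02 and those of Serpinb1a by 0.03 to 0.19. By limma 0 of these 10 genes passed (adjusted p = 0.998 for each), against 0.0801% of all genes.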

How the data were processed

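The deposited table holds log2 values of 18719 probe sets for 12 Affymetrix mouse gene arrays. Per the submitters' processing notes they were made with RMA and the affy package, whose version is not given, from 20 ng of RNA amplified to cDNA, of which 2.5 µg was labelled. RMA corrects background and forces one value distribution on the arrays it is run on, and it shrinks differences of dim genes. Which arrays were run together was not given. The array annotation gives 10657 probe sets 1 gene symbol and 523 several, and 7539 are unnamed here. The brightest probe set per gene was used, giving 9984 genes, of which 9933 matched RefSeq by gene ID. A single linear model per gene, with 4 group means over the 12 arrays, was fitted in limma 3.58.1 under R 4.3.3 with 8 residual and 4.35 prior degrees of freedom, two-sided tests and Benjamini-Hochberg adjustment over all genes at 0.05. SE is the moderated standard error. The fit was run on simulated data with independent normal noise, which checks the code and not the calls made here. Groups of 3 arrays limit the precision, and since the labels do not name separate animals, a p-value reflects only the spread among the deposited arrays, possibly technical. The members and the 14 gene lists were chosen with earlier results of these data known, and 85 of 222 listed genes have a value. Named genes are the members, the 5 genes most correlated with each (without predicted genes, clones and receptors of smell or taste), and per list and comparison up to 4 called genes or the 2 smallest p-values. Others, such as Serpinb1c and the neighbours, were named after their values were seen. Alternatives were a replicate block, filters on dim probe sets, means of probe sets, other scalings, another moderation, fewer arrays and each array left out.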

Additional observations from a re-analysis of the deposited data

How the results depend on the processing

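The differences of the 3 genes between Erg -/- and Erg fl/fl MPPs kept their sign and moved by less than the spread between replicates under all 15 alternatives. Several of these could not move a difference of group means and left it unchanged. They were the replicate block, the filters, the means of probe sets, the other moderation and the fit of only the arrays compared. Only the other scalings and the left-out arrays put the size of these differences to a check. Between Erg fl/fl MPPs and Erg +/+ HSCs, leaving out replicate 1 of Erg +/+ HSCs together with replicate 1 of Erg fl/fl MPPs, an alternative chosen after seeing the data, gave 1.13 for Nkg7 and 0.57 for Cst7. With 1 array left out these differences ranged from 1.33 to 2.15 for Nkg7, 0.90 to 1.74 for Cst7 and 2.19 to 2.82 for Serpinb1a. In HSCs they ranged from -0.66 to 0.29 for Nkg7, with 0.16 without Erg +/+ replicate 2, from -0.27 to 0.57 for Cst7 and from 0.03 to 0.75 for Serpinb1a. Cst7 was also at -0.27 without both of the arrays named above, and no alternative brought a member past the threshold in HSCs (lowest adjusted p = 0.732).

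The number of genes called in HSCs, 2 with the settings of the report, was 1 with the replicate block, 7 with the 25th percentile filter, 5 with trend and robust moderation, and 0 with means of probe sets, with only the 6 arrays compared and without those 2 arrays. It ranged from 1 to 8 with 1 array left out, with 8 without Erg +/+ replicate 2, 6 without Erg +/- replicate 2 and 1 without any other HSC array. That in MPPs, 8, ranged from 5 to 7 with 1 array left out, with 5 without any Erg -/- array or Erg fl/fl replicate 2, and was 4 without those 2 arrays. That between the control groups, 128, was 61 with only the 6 arrays compared and 61 without those 2 arrays, and ranged from 47 to 150 with 1 array left out, the lowest without Erg fl/fl replicate 2 and 48 without replicate 3. These calls were 65 higher and 63 lower, against 46 higher and 91 lower with median centring, and Irf8 missed the threshold there (adjusted p = 0.0639). With only the 6 arrays compared Irf8, Cd7 and Vpreb1 missed it between the control groups (adjusted p from 0.0675 to 0.0864), as Vpreb1 did in 4 of 6 cases of leaving out 1 array (up to 0.106). Without those 2 arrays Cd7 and Ebf1 (0.0608 each) and Irf8 (0.131) missed it as well. The causes were not tested. The replicate numbers of the titles did not pair the arrays: deviations of same-numbered arrays correlated between -0.0852 and 0.104, and the block moved no member across the threshold. Background correction and slide could not be varied with the deposited values.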
